A study of Triticum aestivum with 16 samples.

Results

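The comparison set the stems of 4 recombinant inbred lines of bread wheat, SB165, SB169, SB10 and SB62, against those of 4 other lines of the same cross, SB109, SB69, SB57 and SB3. The sides follow the order of the samples in the series, so that the first 4 lines stand against the last 4. No array value was used to form them, and whether the order follows a measured trait is not stated. All 16 arrays of the series entered, 8 a side, with 2 arrays for each of the 8 lines. Every line descends from the parents Seri M82 and Babax, and each array carried RNA of 7 to 8 main-tiller stem tops pooled from 1 field plot. Both sides were grown rain-fed without a further treatment and were sampled at anthesis, about 2 days after heavy rain, as the top 2 internodes together with the enclosing leaf sheath. The labels do not say what distinguishes the first 4 lines from the last 4, and they give no line a class of stem carbohydrate. A line is 1 genotype, so lines and not arrays were the independent units, and a difference between the sides is a difference between 2 sets of 4 genotypes.

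The wheat stem stores surplus sugar around anthesis as water-soluble carbohydrate, chiefly fructans, and passes it on to the grain later. Fructans are built from sucrose in the vacuole by fructosyltransferases and are taken apart again by fructan exohydrolases. Sucrose synthase and invertases cleave sucrose for growth, and the upper internodes at this stage still lay down cellulose and lignin in their walls while the sheath and outer stem photosynthesise.

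Levels are given as log2 of the deposited intensity, with values under 1 set to 1, and differences as the first 4 lines minus the last 4 in log2 units. The 16 array medians lay between 4.56 and 4.64 log2 units, and the means of the sides differed by 0.0017 (exact permutation of the 8 lines, two-sided p = 0.914). Replicate arrays of a line correlated with r from 0.984 to 0.995. After each probe set was centred on its mean, the 2 arrays of SB165 correlated with r = -0.077 and those of SB3 with r = 0.192, against 0.297 to 0.573 in the other 6 lines, so results were also computed without each array. In bulk stems, fewer cells of a type and less RNA per cell cannot be told apart.

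Of 61115 wheat probe sets, 1 passed the test between the sides at an adjusted p of 0.05, which is 0.00164% of those tested, and it was lower in the first 4 lines. This probe set, Ta.28688.1.A1_at, is not paired with a gene in the tables used here. On the 8 arrays of the first 4 lines its log2 level was 2.52 and 3.65 in SB165, 2.93 and 3.47 in SB169, 2.76 and 3.29 in SB10, and 3.01 and 3.11 in SB62. On the arrays of the last 4 lines it was 6.74 and 7.02 in SB109, 6.73 and 6.51 in SB69, 7.26 and 7.01 in SB57, and 7.18 and 6.86 in SB3. The highest array of the first 4 lines lay 2.86 log2 units under the lowest array of the last 4, so the sides did not overlap on any array. The mean was 3.09 ± 0.08 (SD, n = 4 lines) against 6.91 ± 0.22 (SD, n = 4 lines), a fall of 14.2-fold in the first 4 lines. The difference of -3.82 had a 95% interval from -4.07 to -3.57 (limma adjusted p = 1.22e-06). This p rests on the spread of lines within a side. It does not measure how often lines that stand on 2 levels part along these sides. An exact permutation of the 8 lines gave two-sided p = 0.0286, the smallest that 4 lines against 4 allow. Any probe set whose line means do not overlap between the sides gets this value. It therefore adds no support for a probe set picked out of all those tested. The side took 97.7% of the variance of this probe set over the 16 arrays, lines within a side 0.555% and replicates 1.79%. The difference was -4.17 in field replicate 1 alone and -3.47 in field replicate 2 alone. Among all array values, the first 4 lines lay at percentiles 7.16 to 33.2 and the last 4 at 77.0 to 84.7. The low side was thus dim, and its signal over background could not be judged, which limits the reading of the fold.

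The array holds 2 other probe sets with the same cluster identifier, which groups probe sets designed from related transcripts. Their differences between the sides were -0.45 (95% interval -1.01 to 0.10) and -0.29 (-0.76 to 0.18), and neither passed. Their levels lay between 7.69 and 9.22 in all lines and were lowest in SB165 and SB10, so SB169 and SB62 of the first 4 lines stood among the last 4. An array level reads how much RNA binds to the probes, and the sequence of the lines under the probes of Ta.28688.1.A1_at was not analysed here.

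**Figure D1:**
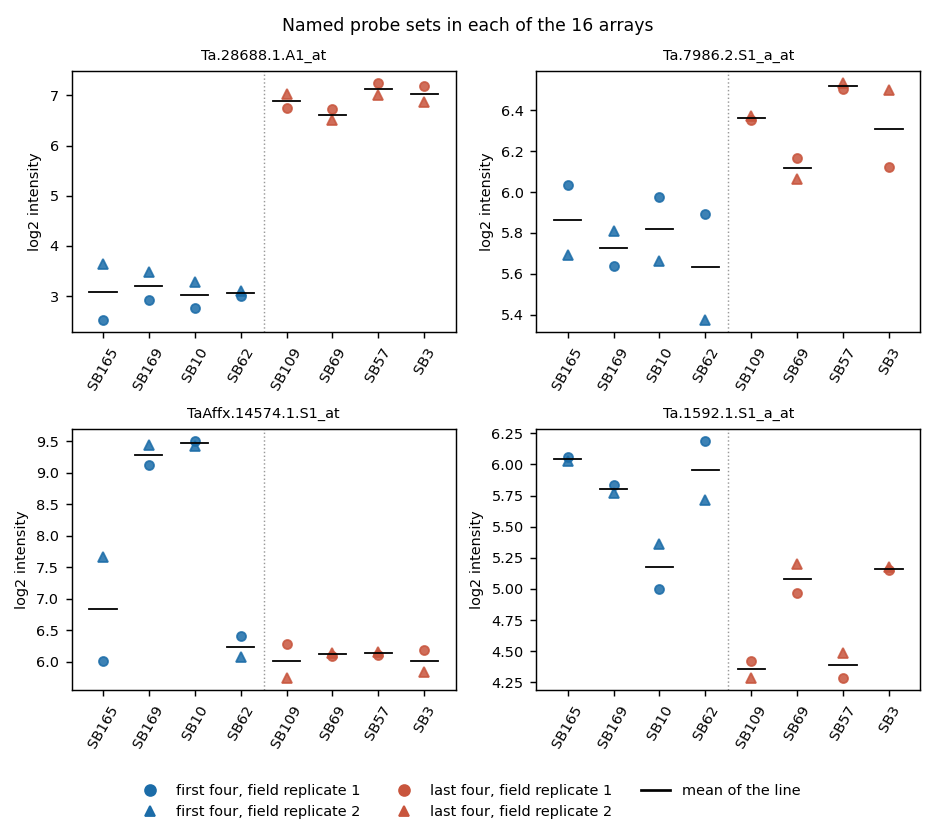
Log2 intensity (vertical axes) of the 4 probe sets named by size of difference, in each of the 16 arrays, by line (horizontal axes). Circles are field replicate 1, triangles field replicate 2, black bars the mean of a line, and the dotted line parts the sides. At Ta.28688.1.A1_at all 8 arrays of the first 4 lines lie at 3.65 or lower and all 8 of the last 4 at 6.51 or higher.

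Every other probe set had a limma adjusted p of 0.999995 or higher. The 3 next named ones were chosen as the largest differences whose line means did not overlap between the sides, and their genes are not given in the tables used here. Ta.7986.2.S1_a_at was lower by a smaller margin in every first-side line, with line means of 5.86, 5.73, 5.82 and 5.63 in SB165, SB169, SB10 and SB62 against 6.36, 6.12, 6.52 and 6.31 in SB109, SB69, SB57 and SB3. Its difference was -0.57 (95% interval -0.79 to -0.35), a 1.48-fold gap, and 1 of the 2 other probe sets of its cluster also had line means that did not overlap, with a difference of -0.34. Ta.1592.1.S1_a_at stood higher in the first 4 lines, at 6.04, 5.80, 5.18 and 5.95 against 4.35, 5.08, 4.38 and 5.16. Its difference was 0.999 (95% interval 0.47 to 1.53), with SB10 and SB3 only 0.02 apart across the sides.

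TaAffx.14574.1.S1_at had the largest positive difference among probe sets with line means that did not overlap, 1.89 (95% interval 0.42 to 3.36), but only 2 of the first 4 lines were far above the rest. Its log2 levels were 9.12 and 9.44 in SB169 and 9.51 and 9.42 in SB10. SB165 had 6.00 and 7.65 and SB62 had 6.41 and 6.06, beside 5.74 to 6.28 over the 8 arrays of the last 4 lines. Single arrays of the 2 sides therefore overlapped. Without SB10 the difference was 1.38, and without SB62 it was 2.46.

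Across all probe sets the sides were close. The median difference was 0.00037, and the central 90% of differences ran from -0.15 to 0.14. The 95% interval of a difference reached 0.20 log2 units either way at the median probe set. A difference within 0.25 log2 units was found in 97.4% of probe sets. Line means did not overlap between the sides in 803 probe sets, 1.31% of those tested, of which 466 (0.762%) were higher and 337 (0.551%) lower in the first 4 lines. These differences were small, with a median size of 0.156 log2 units, and 10 of the 803 reached 0.5. In 8 probe sets (0.0131%), 4 higher (0.00655%) and 4 lower (0.00655%), the single arrays of the sides did not overlap either. The count of 803 ranged from 718 to 1056 when 1 array was left out. It rose to between 1583 (without SB109) and 3193 (without SB69) when 1 line was left out, where 4 lines meet 3. For any 1 probe set, 2 of the 70 ways to split the 8 lines into 4 and 4 leave the line means without overlap. An unadjusted limma p under 0.05 was reached by 1132 probe sets, 1.85% of those tested.

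**Figure D2:**
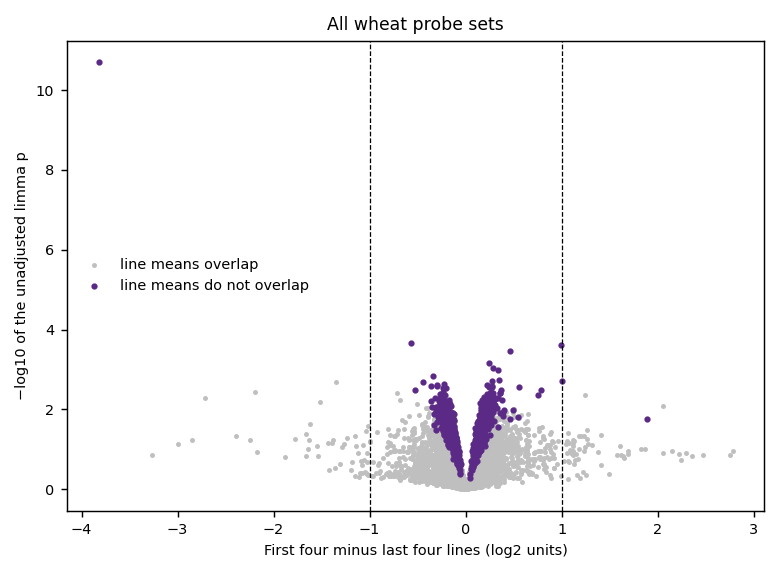
Difference of the first 4 minus the last 4 lines (horizontal axis, log2 units) against −log10 of the unadjusted limma p (vertical axis) for the 61115 wheat probe sets. Purple points are the 803 probe sets with line means that did not overlap, and dashed lines mark 1 log2 unit. Only 2 purple points lie outside the dashed lines, Ta.28688.1.A1_at at the upper left and TaAffx.14574.1.S1_at on the right.

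A difference of at least 1 log2 unit, which is 2-fold, was found in 114 probe sets, 0.187% of those tested, 63 higher (0.103%) and 51 lower (0.0834%) in the first 4 lines. In 112 of the 114 the line means of the sides overlapped. The 2 exceptions were Ta.28688.1.A1_at and TaAffx.14574.1.S1_at. For each of the 114, lines were counted as standing on the upper level if they lay above the midpoint between the highest and the lowest line. All 4 lines of 1 side and none of the other stood on the upper level in 1 probe set, Ta.28688.1.A1_at. The commonest arrangement among the 63 higher ones was 3 of the first 4 lines with 1 of the last 4, in 42 probe sets. In 35 of these the upper lines were SB165, SB169, SB10 and SB3, so SB62 parted from its side and SB3 from the other. Among the 51 lower ones, 16 had 3 of the last 4 lines with 1 of the first 4 on the upper level, and 11 had 3 with 2. The 114 probe sets carried 104 cluster identifiers, so some of these counts may repeat a transcript.

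In 67 of the 114, at least 3 lines of 1 side and at most 1 of the other stood on the upper level. The size of the 114 differences depended on single lines in many cases, and their sign did not. The 114 were chosen for their size in these same lines, which favours a stable sign. An unadjusted limma p under 0.05 was reached by 20 of the 114, beside 1.85% of all probe sets. The median size of the 114 was 1.25 log2 units, and the median of the smallest size without 1 line was 0.86. Leaving out 1 line at a time brought 74 of them under 1 log2 unit in at least 1 case and turned the sign of none, while 40 stayed at 1 log2 unit or above throughout. The number of probe sets at least 1 log2 unit apart was 179 without SB10, with 49 higher and 130 lower, and 86 without SB109. Over the 114, the median share of variance was 23.4% for the side, 73.1% for lines within a side and 2.95% for replicates. Over all probe sets the medians were 2.55%, 48.0% and 46.3%, beside 6.67%, 40.0% and 53.3% of the degrees of freedom. With the spread between replicate arrays as the error, which does not take lines as the units, 350 probe sets passed (0.573%), 208 higher (0.34%) and 142 lower (0.232%), among them 100 of the 114. Line means did not overlap in 4.29% of those 350.

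**Figure D3:**
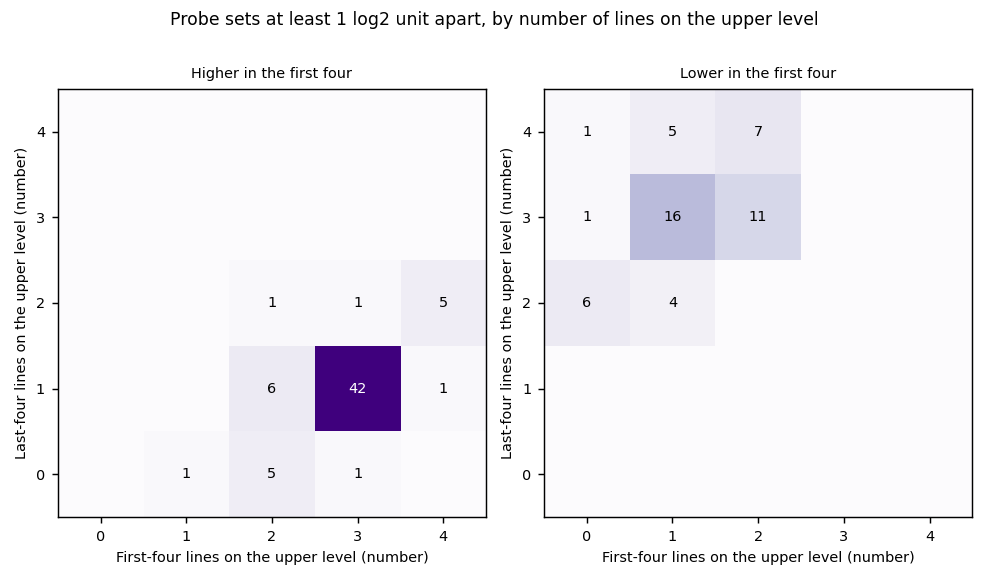
Number of probe sets (figures in the cells, darker for more) by how many of the first 4 lines (horizontal axes) and of the last 4 lines (vertical axes) stood on the upper level, for the 63 probe sets higher (left) and the 51 lower (right) in the first 4 lines by at least 1 log2 unit. The cell of 3 first and 1 last line holds 42 of the 63, and the cell of no first and 4 last lines holds 1.

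The sides did not part on the main axis of variation. The first principal component of the 30557 brighter probe sets held 41.1% of the variance, and its line means ran from -39.9 (SB62) to 40.6 (SB10) on the first side and from -30.5 (SB57) to 38.0 (SB3) on the other. The side means were -2.66 ± 36.7 (SD, n = 4 lines) and 2.66 ± 28.1 (SD, n = 4 lines), a difference of -5.32 (exact permutation, two-sided p = 0.886). The next 2 components gave exact permutation p-values of 0.857 and 0.0857, or 0.886 and 0.257 after Benjamini-Hochberg adjustment over the 3 components.

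Few probe sets carry a gene name in the tables used here. Of the 61115 wheat probe sets, 1273 were paired with 1 of 771 gene symbols, and 200 of these, for 102 genes, had a name that says more than a locus number. Among the 1273, limma called 0 at an adjusted p of 0.05. An unadjusted limma p under 0.05 was found for 21, or 1.65% beside 1.85% of all probe sets. Line means did not overlap in 10 of the 1273, or 0.786% beside 1.31% of all probe sets. At least 1 log2 unit apart were 6 of the 1273, or 0.471% beside 0.187%. A total of 180 probe sets of 79 genes was described by role, with 25 control probe sets named for wheat genes among them. None of the 180 passed, and 1 had an unadjusted limma p under 0.05, beside 1.85% of all probe sets. The sides differed by under 0.25 log2 units in 167, or 92.8% beside 97.4% of all probe sets. The median difference of the 180 was 0.0008, beside 0.00037 over all probe sets.

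No difference between the sides was called for transcripts of the fructan exohydrolases. 1-FEH, which removes fructose from the ends of inulin-type fructan chains, had log2 levels of 10.84 and 11.04 in SB165, 10.78 and 10.59 in SB169, 11.05 and 11.10 in SB10, and 11.23 and 11.30 in SB62. In the last 4 lines it had 10.84 and 10.75 in SB109, 10.95 and 10.96 in SB69, 10.79 and 10.87 in SB57, and 11.10 and 10.92 in SB3. The highest line (SB62) and the lowest (SB169) both belonged to the first side, and the difference of the sides was 0.09 (95% interval -0.17 to 0.35). The 3 probe sets paired with 6-FEH, which acts on levan-type chains, differed by 0.26 (-0.39 to 0.92), 0.06 (-0.18 to 0.29) and -0.08 (-0.71 to 0.56). SB169 was the highest line at the first and the last of these, at 7.27 and 6.74. The difference at the first was -0.04 without SB169 and 0.47 without SB165, and it had opposite signs in the field replicates, 0.89 in replicate 1 and -0.36 in replicate 2. The fructosyltransferases, sucrose-phosphate synthase and the sucrose transporter SUT1 were not analysed here, since no probe set is paired with them by name.

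Sucrose synthase, a sucrose-cleaving enzyme that yields UDP-glucose, was read by 3 control probe sets along the transcript. Its levels in the first 4 lines lay under those of the last 4 on average, with differences of -0.13 (95% interval -0.41 to 0.14) at the 3′ part, -0.22 (-0.55 to 0.11) in the middle and -0.09 (-0.43 to 0.26) at the 5′ part. None passed. In the middle, SB165, SB169 and SB62 had line means of 9.76, 9.62 and 9.71, and SB57 of the other side had 9.80. SB10 had 10.27, above SB109, SB69 and SB3 at 10.15, 10.13 and 10.16, so 1 line of each side stood with the opposite side. The middle difference was -0.36 without SB10 and -0.15 without SB169, and the 5′ difference was 0.00 without SB165. Glucose-6-phosphate dehydrogenase, which feeds glucose 6-phosphate into the oxidative pentose phosphate pathway, differed by -0.09, 0.00 and -0.04 at its 3′, 5′ and middle probe sets. The line means of each of its probe sets spanned 0.78 to 0.89 log2 units, with SB10 and SB3, 1 line of each side, at the top.

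No starch gene passed the test between the sides. AGP-S, the small subunit of ADP-glucose pyrophosphorylase that commits glucose to starch, lay between 8.86 and 9.01 in all lines and differed by -0.05 (95% interval -0.19 to 0.10). GBSS-I, the granule-bound synthase that makes amylose, differed by -0.09 (-0.29 to 0.11). BMY1, a beta-amylase that releases maltose from starch, differed by -0.41 with a wide interval from -1.44 to 0.63. Its line mean was lowest in SB62, at 4.14, and highest in SB109, at 6.88, where the 2 field replicates had 5.23 and 8.52. The difference was -0.02 without SB62 and -0.69 without SB10, and it was 0.02 in field replicate 1 alone and -0.84 in field replicate 2 alone. The 7 probe sets of glycolysis and hexose phosphate genes (PFK, Pgk-1, GAPN, FBP and PMM) differed by -0.07 to 0.08. In the pathway lists of carbohydrate, lignin and dehydration genes, 17 probe sets of 9 genes could be found. Of these 0 passed, 7 stood higher and 10 lower in the first 4 lines, and the median difference was -0.04.

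**Figure D4:**
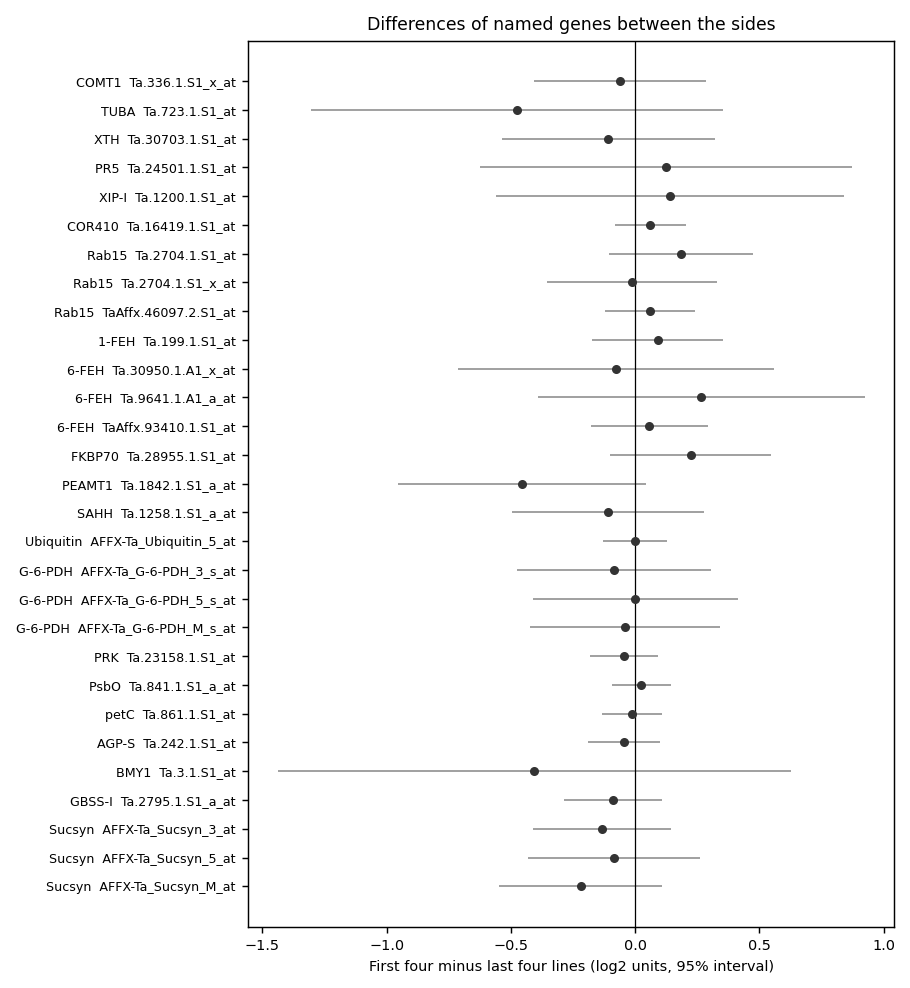
Difference of the first 4 minus the last 4 lines (horizontal axis, log2 units) for named genes, as points with 95% intervals from limma. Gene names and probe sets stand on the vertical axis. Every interval crosses 0, with the widest for BMY1 (-1.44 to 0.63) and narrow ones for PsbO (-0.09 to 0.14) and AGP-S (-0.19 to 0.10).

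None of the 34 probe sets of photosynthesis genes passed the test between the sides. Of these, 17 lay under the median level of all probe sets. PsbO, a subunit of the oxygen-evolving complex of photosystem II, had line means between 13.30 and 13.40 and a difference of 0.02 (95% interval -0.09 to 0.14). PRK, the phosphoribulokinase of the Calvin cycle, differed by -0.05 (-0.18 to 0.09), and the brighter petC probe set, for the Rieske protein of the cytochrome b6f complex, by -0.01. The table pairs 28 probe sets with rbcl, the large subunit of Rubisco. Their line means ranged from 2.24 to 14.89, and their differences from -0.07 to 0.26. In the photosynthesis group as a whole, 20 of 34 probe sets stood higher and 14 lower in the first 4 lines, with a median difference of 0.03 and 0 called. The listed tissue markers (Rubisco small subunit, chlorophyll-binding protein, histone H4 and others) were not analysed here, for want of a probe set paired with them by name.

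Markers of other tissues were mostly dim on both sides. The 17 probe sets of grain storage proteins (gliadins, a glutenin and avenin-like proteins) differed by -0.14 to 0.12, and 14 of them lay under the median level of all probe sets. The others were brighter, with line means of up to 9.61 for the avenin-like gene avnlb and up to 7.12 for the glutenin gene Glu-D3. The 4 probe sets of raftin, an anther protein, differed by -0.02 to 0.05 and their line means stayed between 2.53 and 5.04.

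No wall or cytoskeleton gene passed the test between the sides. COMT1, an O-methyltransferase of lignin synthesis, had line means of 12.72, 12.54, 13.01 and 12.33 in SB165, SB169, SB10 and SB62, and of 12.73, 12.85, 12.37 and 12.89 in SB109, SB69, SB57 and SB3. The difference was -0.06 (95% interval -0.41 to 0.29), with SB62 and SB57 low on their sides. SAHH, which recycles the by-product of methyl transfer, differed by -0.11 and -0.13 at its 2 probe sets. PEAMT1, a methyltransferase of choline synthesis, differed by -0.46 (-0.95 to 0.04), and its levels overlapped because SB57 had the lowest line mean of all, 7.10. Of 2 alpha-tubulin probe sets, 1 differed by -0.48 (-1.30 to 0.35), with SB10 the highest line, at 9.12, and SB62 the lowest, at 7.29. Its difference was -0.86 without SB10 and -0.25 without SB62. The other differed by -0.02. Tubulins are a family of near-identical genes, and probe sets may share their transcripts. XTH, a xyloglucan endotransglucosylase/hydrolase that remodels wall hemicellulose, differed by -0.11 (-0.54 to 0.32). The 4 probe sets of GA20ox1, a gibberellin 20-oxidase, differed by -0.08 to 0.04.

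The dehydration genes were dim on both sides, while some defence genes were brighter. The dehydrin genes COR410 and Rab15 and the embryo proteins LEA1, EMH2 and EM had 10 probe sets with line means between 2.13 and 4.84. Their differences ran from -0.01 to 0.19, with 9 of the 10 higher in the first 4 lines and a median of 0.09, and 0 passed. Among defence genes, the thaumatin-like PR5 had its highest line mean in SB169, at 10.98, and its lowest in SB69, at 9.23, and the sides differed by 0.12 (95% interval -0.62 to 0.87), or by -0.18 without SB169. The xylanase inhibitor XIP-I differed by 0.14 and 0.13 at its 2 probe sets, and the thionin THI1.1 by 0.31 (0.02 without SB165 and 0.64 without SB62) and 0.15. The 8 probe sets of translation genes and the 3 of ubiquitin differed by at most 0.06 in either direction.

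Where named genes moved by several-fold among the lines, lines of both sides took part. A probe set paired with LTP3, a lipid transfer protein, stood at 9.75 and 9.90 in SB10, while SB165 had 5.41 and 5.72, SB169 had 6.15 and 5.32, and SB62 had 6.10 and 6.31. In the last 4 lines it stood at 9.32 and 9.58 in SB109, 8.97 and 9.40 in SB69 and 9.44 and 9.67 in SB3, but at 5.36 and 6.22 in SB57. The levels thus formed 2 steps, with 1 line of the first side on the upper and 3 of the last, and the difference of -1.66 had a 95% interval from -4.05 to 0.73. It was -2.66 without SB10 and -1.24 without SB165. The second LTP3 probe set lay between 12.28 and 12.61 in all lines and differed by 0.10, so the 2 probe sets of this gene disagree. hsp16.9A, a small heat shock protein, stood at 7.82 and 6.46 in SB165, 6.18 and 6.27 in SB109 and 6.56 and 4.62 in SB3. The 10 arrays of the other lines lay between 2.26 and 2.96. The side difference was -0.40 (95% interval -3.05 to 2.24), which became -1.52 without SB165 and turned to 0.27 without SB109.

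Histone transcripts, which dividing cells make for new chromatin, moved widely on both sides. Of 18 probe sets of H2A and H2B genes, 13 spanned at least 1 log2 unit over the lines, beside 4.85% of all probe sets. In 12 of the 13 the 4 highest lines were SB165 and SB10 of the first side with SB109 and SB3 of the last. The side differences of these 13 ran from -0.42 to 0.10 and 0 of the 18 passed. At 1 H2A-9 probe set the log2 levels were 4.42 and 7.51 in SB165, 4.34 and 3.84 in SB169, 6.80 and 8.51 in SB10 and 4.56 and 4.31 in SB62. They were 7.27 and 7.35 in SB109, 4.59 and 5.60 in SB69, 4.29 and 4.31 in SB57 and 4.75 and 9.51 in SB3. The field replicates of SB165 and SB3 were therefore 3 or more log2 units apart, and the difference of -0.42 had a 95% interval from -2.37 to 1.53. It was -1.13 without SB10 and 0.06 without SB169. A wcH2B-8 probe set had the same high arrays, with 6.18 in replicate 2 of SB165 and 7.85 in replicate 2 of SB3. Histones are multigene families, so these probe sets may share transcripts.

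**Figure D5:**
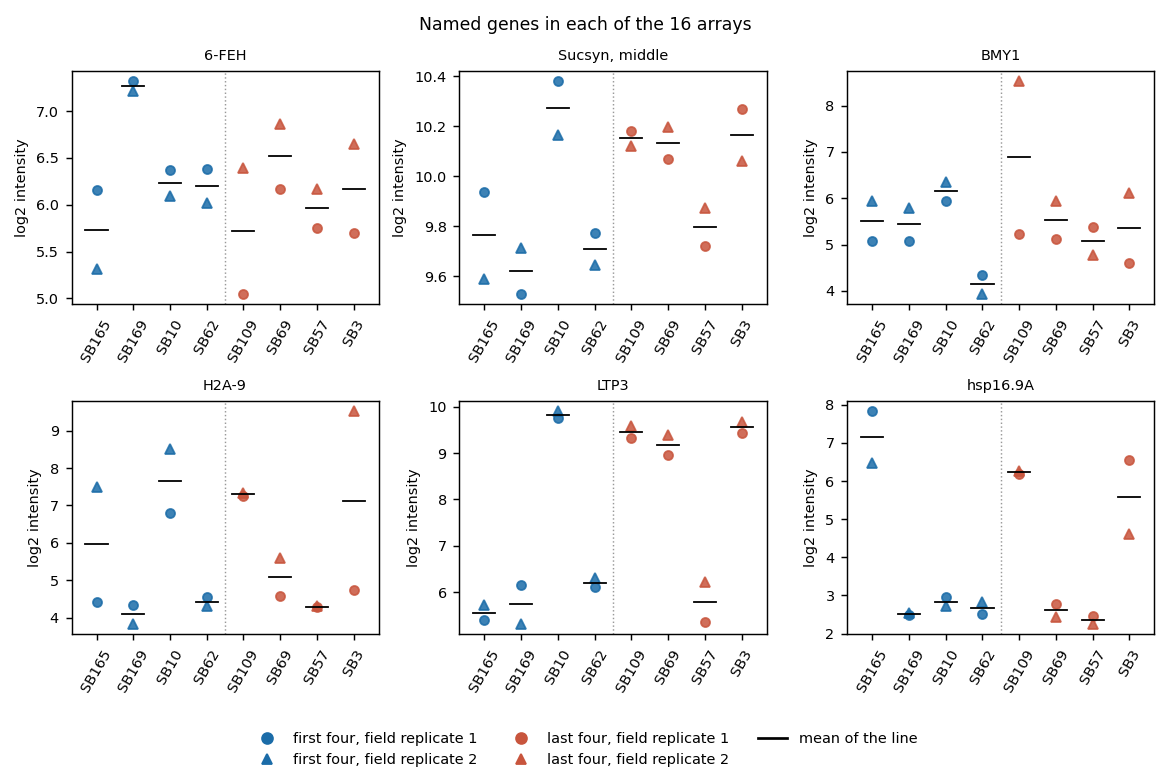
Log2 intensity (vertical axes, each with its own range) of 6 named genes in each of the 16 arrays, by line (horizontal axes). Circles are field replicate 1, triangles field replicate 2, black bars the mean of a line, and the dotted line parts the sides. High and low lines occur on both sides in every panel, as for LTP3 with SB10 at 9.83 and SB57 at 5.79.

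The other 5 paired probe sets at least 1 log2 unit apart belong to genes known here by locus number only, and none passed. LOC543445 had line means of 9.01, 8.79 and 9.61 in SB165, SB169 and SB10 but 3.48 in SB62, and of 3.90, 4.83 and 3.55 in SB109, SB69 and SB57 but 9.64 in SB3. Its difference of 2.25 had a 95% interval from -1.29 to 5.79 and was 3.66 without SB62 and 1.60 without SB57. LOC543416 differed by 1.12, with SB10 at 9.16 and SB109 at 4.93, and LOC543404 by 1.06, with the same highest and lowest lines. Without SB109 these differences were 0.51 and 0.61. LOC780572 differed by -1.08, with -0.55 without SB169 and -1.84 without SB10. LOC780687 was also lower and just reached 1 log2 unit, with -0.49 in field replicate 1 alone, -1.51 in field replicate 2 alone and -0.63 without SB10. Line means of the sides overlapped for all 5.

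The field replicates gave the side differences in the same direction in most cases where these were large. The replicates are separate plots of the same 8 lines, so they repeat the genotypes and add no new ones. In field replicate 1 alone, 117 probe sets were at least 1 log2 unit apart, 53 higher and 64 lower. In field replicate 2, 114 of these 117 had the same sign and 84 were at least 1 log2 unit apart, with a median size of 1.28 in both. Of 123 probe sets so chosen in field replicate 2, 120 had the same sign in field replicate 1 and 84 reached 1 log2 unit, with a median size of 1.14 there against 1.34. A test of whether the side difference itself differed between the field replicates, added after the data were seen, called 0 probe sets in limma, and 3221 (5.27%) had an unadjusted p under 0.05.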

How the data were processed

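Stem RNA of 16 samples was hybridised to 1-colour Affymetrix wheat arrays. The deposited intensity values, 1 per probe set and array, were used. Per the submitters' processing notes the authors used GCOS and RMA, with no version or order stated. RMA itself returns log2 values, whereas these lie on a linear scale, and no source used here tells how they got there.

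Of 61289 probe sets with 0 missing values, 85 controls and 64 reporters were left out. Values were floored at 1 and converted to log2 without further normalization. The 2 arrays of a line were averaged, and 4 line means a side entered limma 3.58.1 under R 4.3.3 (eBayes with an intensity trend, 6 residual and 3.68 prior degrees of freedom), with Benjamini-Hochberg adjustment over the 61115 wheat probe sets and a threshold of 0.05. The 25 control probe sets named for wheat genes were adjusted together with them. In simulated data, 88 of 100 probe sets shifted by 1 log2 unit and 97 of 100 shifted by 2 were called, with 5 unshifted ones. The simulated line values were drawn independently from a normal distribution, so levels in 2 steps, as at LTP3, were not covered. The shifts were planted at probe sets drawn at random, and so many true shifts loosen the Benjamini-Hochberg cut-off. These rates therefore do not carry over to the data, where 1 of the 114 probe sets at least 1 log2 unit apart was called. Exact permutation used the 70 ways to split the lines, and 2 of these give the smallest p.

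The rule for named items gave the 2 largest rises and 2 largest falls, called ones first and then those with line means that do not overlap, together with the control probe sets and the listed genes. Platform annotation gave gene symbols for 1273 probe sets, and 1272 of these were found in the table of IWGSC CS RefSeq v2.1, used for names only. The other 59842 are unnamed here. The members and lists were chosen with earlier results of these data known, and 70 of the 79 genes were added by name after the data were seen. No probe or transcript sequence was used here. With 8 lines, their number limits the precision. Same-numbered field replicates deviated together in 14 of 28 pairs of lines (correlation over 0.1), with correlations of -0.295 to 0.536. The alternatives are given in the closing section. Plots were drawn with matplotlib 3.10.9, and tables were made with pandas 2.3.3 and numpy 2.4.6 under Python 3.11.15.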

Additional observations from a re-analysis of the deposited data

Results flagged for a closer look

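In 9 of 88 sets of 4 line means, 1 line lay far from the other 3 of its side, which chance gives in about 1 of 20 sets that are independent and not chosen for their values. These sets are neither, since some genes entered for their large differences and some with several probe sets, so 9 of 88 is a count and no test. In the first 4 lines, SB10 stood high at the stepped LTP3 probe set (9.83, the others 5.56 to 6.21) and at LOC543416 (9.16, the others 7.35 to 7.47). SB165 stood high at hsp16.9A (7.14, the others 2.52 to 2.84). SB62 stood low at LOC543445 (3.48, the others 8.79 to 9.61), and SB169 stood low at PEAMT1 (7.13, the others 7.45 to 7.50). In the last 4 lines, SB57 stood low at the same LTP3 probe set (5.79, the others 9.18 to 9.56), at the middle sucrose synthase probe set (9.80, the others 10.13 to 10.16) and at alpha-tubulin (7.88, the others 8.55 to 8.66). SB3 stood high at the 5′ probe set of glucose-6-phosphate dehydrogenase (7.41, the others 6.91 to 6.96).

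The brightest of the 64 reporter probe sets, which no comparison used, had a mean log2 level of 13.85 over the 16 arrays and ran from 13.64 to 14.04. Its sides differed by -0.03 (exact permutation of the 8 lines, two-sided p = 0.486).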

How the results depend on the processing

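Ta.28688.1.A1_at was called in all 36 alternatives, with differences of -4.17 to -3.47 and limma adjusted p-values of 1.79e-10 to 0.000895. The number of probe sets called stayed at 1 in every alternative but 3 kinds. It was 350 with the replicate spread as the error, 1 to 3 when each line was left out (3 without SB10; 2 without SB169, SB69 or SB3), and 0 in the test of a difference between the field replicates. With the replicate block and line as a random block the count was 1, as it was with line as a random block alone (estimated correlations 0.187 and 0.162), and the line-mean fit cannot change with a replicate term because every line has both replicates. The numbers mark separate plots, and 14 of 28 line pairs deviated together, so no pairing was taken as given.

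The 803 probe sets with line means that did not overlap became 283 with a filter on dim probe sets, which tests fewer of them, and 1499 in field replicate 1 alone. They ranged from 718 to 3193 when an array or a line was left out. The 114 probe sets at least 1 log2 unit apart became 19 at 2 log2 units and ranged from 86 to 179 when an array or a line was left out. The difference on the first principal component ranged from -20.9 to 6.02 when an array or a line was left out, with exact permutation p-values of 0.4 to 0.971. Of the 42 single probe sets followed, 41 were not called, and 18 of them changed sign in at least 1 alternative (68 of 1454 values). With the replicate spread as the error 5 of the 41 passed, and in the other alternatives 0 did. The causes were not tested. Signal over background could not be judged from these values.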
